A study of Mus musculus with 38 samples.

Results

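The Wnt pathway was followed through its genes in the mouse cortical collecting duct (CCD), dissected by hand from the kidney. The set was drawn by gene symbol: the Wnt ligands, the Frizzled (Fzd) receptors and the co-receptors Lrp5 and Lrp6, the secreted antagonists of the Sfrp and Dkk families, the R-spondins (Rspo) with their Lgr receptors, the ligases Znrf3 and Rnf43, the feedback genes Axin2, Nkd1 and Nkd2, and the transcription factors Tcf7, Tcf7l1, Tcf7l2 and Lef1. This rule took 56 of the 55416 genes listed in the larger RNA-seq table, and among them was 1 antisense RNA, Fzd10os. Axin2 and Lef1 came with the set as its markers.

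Wild-type C57BL/6 mice received either saline or dDAVP, a vasopressin analogue selective for the V2 receptor, by infusion over 5 days. Their ducts gave 4 RNA-seq libraries per group, and 3 ATAC-seq libraries per group with 3 ducts in each reaction. A separate RNA-seq table of 24 libraries compared WT with MT, a mutation of S552, a site of protein kinase A in β-catenin; each genotype had 4 numbered units of 3 libraries. All 24 carry the labels C57BL/6 and dDAVP, the genotype appears in their titles alone, and the table's own name speaks of no vasopressin, so whether these mice were infused is uncertain. The labels gave no age and did not say that a unit was 1 animal or a library a separate mouse, so p-values measure the spread between these units or libraries, which may be partly technical.

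Wnt proteins are secreted ligands that bind a Frizzled receptor together with Lrp5 or Lrp6. In the canonical branch this spares β-catenin from destruction, and β-catenin then acts with TCF and LEF factors at target genes, of which Axin2 is the most widely used readout. R-spondins bind Lgr receptors and remove the ligases Znrf3 and Rnf43, which otherwise clear Frizzled receptors from the membrane. In the kidney, Wnt9b from the ureteric bud and its derivatives induces nephron formation, Wnt7b from the developing collecting duct is needed for the medulla, and Wnt4 acts in the forming tubules.

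The dissected ducts carried the markers of collecting duct cells. Aqp2, the water channel of principal cells, lay at 11231 to 27629 TPM (a level scaled for transcript length and library total, comparable between genes) in the 8 WT and MT units. The 5 intercalated cell markers summed to 3340 to 4268 TPM. Other segments were present at levels that differed between libraries: Umod and Slc12a1 of the thick ascending limb summed to 7.40 to 1019 TPM per unit, and 5 proximal tubule markers to 1.53 to 493.9 TPM. RNA of non-epithelial cells was present too: 7 fibroblast and stroma markers summed to 32.6 to 82.5 TPM, nearly all of it Dcn at 29.2 to 79.5 TPM, 6 endothelial markers to 147.8 to 281.1 TPM and 5 immune markers to 14.5 to 86.4 TPM. In whole ducts, fewer cells of a type and less RNA per cell cannot be told apart. Ctnnb1, which encodes β-catenin, lay at 387.1 ± 11.9 TPM in WT and 383.3 ± 16.7 TPM in MT units (SD, n = 4). Its level says nothing of a point mutation.

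Of the 56 genes, 23 (41.1%) reached a mean of 1 TPM over the 24 libraries, against 15013 of all 55416 genes (27.1%). Another 25 lay between 0.1 and 1 TPM, and 8 were lower. None was at 0 in every library. By role, 5 of 19 ligands, 8 of 10 Frizzleds, both co-receptors, 3 of 8 secreted antagonists, 1 of 3 Lgr receptors, 0 of 4 R-spondins, both ligases, 0 of 3 feedback genes and 2 of 4 factors reached 1 TPM. The plot of levels by unit shows the 23 genes with Axin2 and Lef1.

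**Figure D1:**
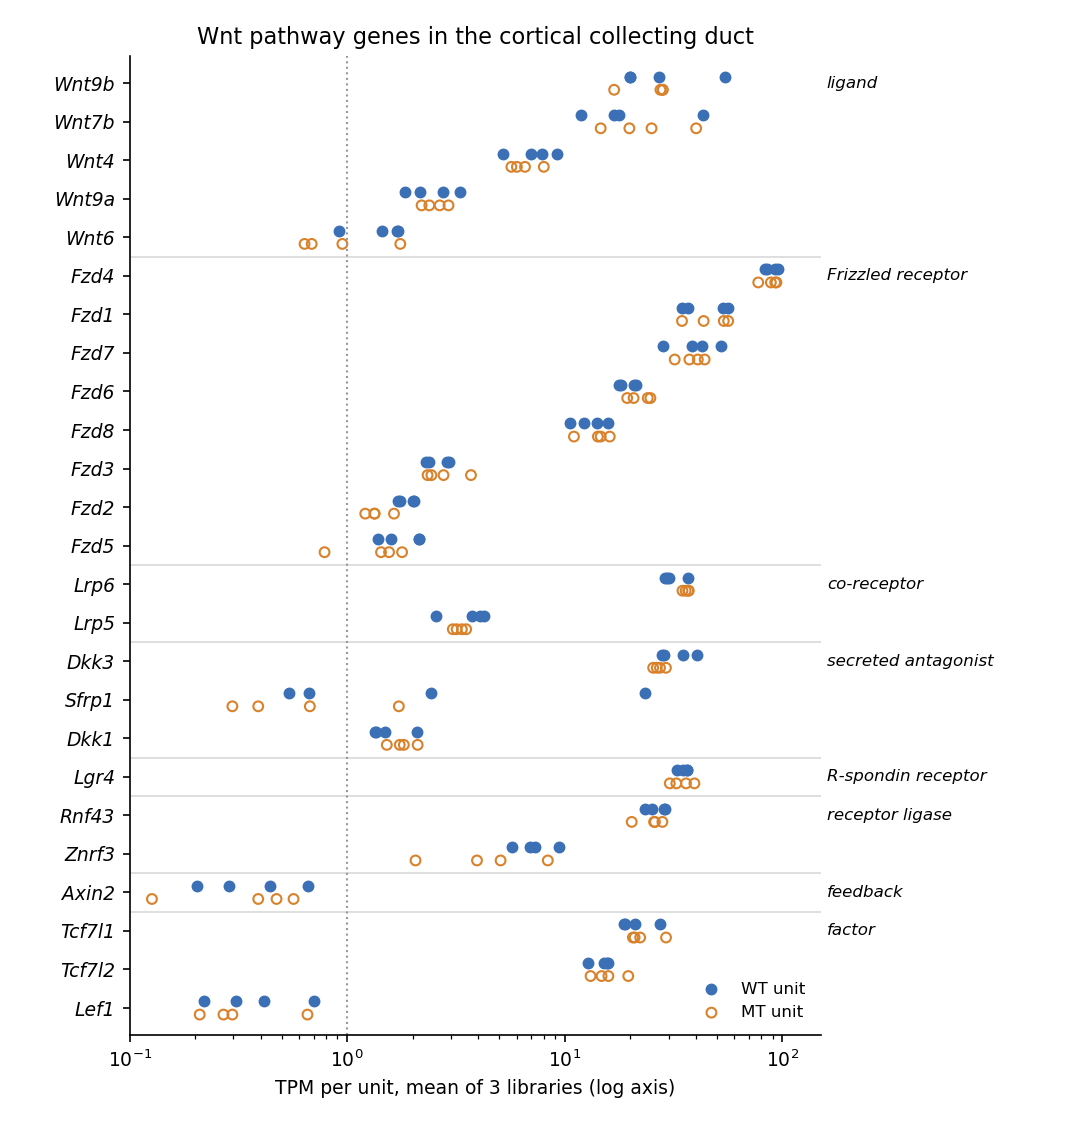
TPM on a log axis in each of 4 WT units (filled) and 4 MT units (open), each the mean of 3 libraries, for the 23 Wnt pathway genes at 1 TPM or more and for Axin2 and Lef1, grouped by role; the dotted line marks 1 TPM. Fzd4 stands highest with every unit above 77 TPM, while every unit of Axin2 and Lef1 lies below 1 TPM.

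Among the ligands, Wnt9b and Wnt7b stood highest. Wnt9b (chromosome 11 of mm10, 103727362 to 103775272) had 20.0, 54.2, 20.0 and 27.0 TPM in WT units 1 to 4 and 28.2, 27.5, 28.2 and 16.8 TPM in MT units 1 to 4. Wnt7b (chromosome 15, 85535437 to 85581821) had 11.9, 42.9, 16.8 and 17.7 TPM in WT and 40.1, 25.0, 19.8 and 14.6 TPM in MT units. WT unit 2 was the highest for both, and the genotypes overlapped. Wnt4 had 6.99, 5.22, 7.85 and 9.25 TPM in WT and 6.02, 8.00, 6.56 and 5.68 TPM in MT units. Wnt9a, a ligand of the same subfamily as Wnt9b, had 2.75, 1.85, 2.17 and 3.29 TPM in WT and 2.66, 2.20, 2.92 and 2.38 TPM in MT units. Wnt6 was the lowest ligand to reach 1 TPM and had 1.69, 0.91, 1.44 and 1.70 TPM in WT and 0.69, 1.75, 0.95 and 0.64 TPM in MT units. The other 14 ligands had WT means of 0.06 to 0.50 TPM, the highest being Wnt5b.

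The Frizzled receptors were the most abundant class. Fzd4 (chromosome 7, 89404366 to 89410110) had 92.2, 85.0, 83.5 and 95.1 TPM in WT and 88.4, 93.8, 92.6 and 77.4 TPM in MT units, and every WT unit exceeded every WT unit of the next gene. Fzd1 had 36.7, 56.4, 34.5 and 53.1 TPM in WT and 43.4, 56.3, 53.7 and 34.5 TPM in MT units. Fzd7 had 42.7, 28.2, 38.2 and 52.2 TPM in WT and 32.0, 37.3, 40.8 and 43.9 TPM in MT units. Fzd1 and Fzd7 overlapped, so their order was not resolved. Fzd6, a receptor known for planar cell polarity, had 17.7, 21.3, 20.8 and 18.0 TPM in WT and 24.7, 19.3, 20.7 and 24.0 TPM in MT units. Fzd8 had 12.2, 15.8, 10.6 and 14.1 TPM in WT and 16.1, 14.6, 14.2 and 11.0 TPM in MT units. These 5 receptors lay above 10 TPM on average, and the next 3 were several times lower. Fzd3 had 2.87, 2.30, 2.37 and 2.93 TPM in WT and 2.34, 2.77, 3.70 and 2.44 TPM in MT units. Fzd2 had 1.75, 1.71, 2.00 and 2.02 TPM in WT and 1.64, 1.33, 1.34 and 1.21 TPM in MT units. Fzd5 had 2.15, 1.60, 1.38 and 2.14 TPM in WT and 1.56, 1.43, 1.79 and 0.79 TPM in MT units. Fzd2 was the gene of the set whose WT and MT units did not overlap, while Fzd3 and Fzd5 overlapped. Fzd9 and Fzd10 had WT means of 0.03 and 0.29 TPM.

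Of the co-receptors, Lrp6 (chromosome 6, 134446476 to 134566913) exceeded Lrp5 in every unit. Lrp6 had 30.2, 36.7, 29.4 and 29.0 TPM in WT and 36.9, 35.9, 37.1 and 34.7 TPM in MT units. Lrp5 had 4.24, 3.73, 2.56 and 4.05 TPM in WT and 3.36, 3.06, 3.52 and 3.18 TPM in MT units.

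The secreted antagonists differed in how evenly they were found. Dkk3, a member of the Dickkopf family whose part in Wnt signalling is less clear than that of Dkk1, had 40.6, 28.5, 35.0 and 27.9 TPM in WT and 26.4, 27.4, 25.5 and 29.1 TPM in MT units. Dkk1, which blocks Lrp5 and Lrp6, had 1.49, 1.35, 2.10 and 1.34 TPM in WT and 2.11, 1.52, 1.74 and 1.82 TPM in MT units. Sfrp1, a soluble decoy that resembles the ligand-binding part of Frizzled, had 23.4, 0.54, 0.67 and 2.43 TPM in WT and 0.67, 0.30, 0.39 and 1.73 TPM in MT units. Its WT mean thus rested on unit 1. Over the 24 libraries Sfrp1 had a mean of 3.77 TPM but a median of 0.52 TPM, so only its mean reached 1 TPM. The other 5 antagonists had WT means of 0.02 to 0.83 TPM, the highest being Dkk2.

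On the R-spondin arm, the receptor and the ligases were present without the ligands. Lgr4 had 34.8, 36.6, 36.5 and 32.9 TPM in WT and 39.4, 32.5, 36.0 and 30.4 TPM in MT units. Lgr5 and Lgr6, better known from stem cells, had WT means of 0.61 and 0.45 TPM. The 4 R-spondin genes had WT means of 0.04 to 0.11 TPM, the highest being Rspo2. Rnf43 had 25.1, 28.8, 23.3 and 28.6 TPM in WT and 28.1, 25.9, 25.7 and 20.3 TPM in MT units. Znrf3 (chromosome 11, 5276329 to 5444847) had 5.71, 6.92, 7.29 and 9.39 TPM in WT and 8.35, 5.07, 3.95 and 2.06 TPM in MT units. All 3 libraries of MT unit 4 were low for Znrf3, at 2.25, 2.42 and 1.51 TPM, whereas all 3 of MT unit 1 were high, at 7.72, 9.57 and 7.76 TPM.

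Of the nuclear factors, Tcf7l1 and Tcf7l2 lay above 10 TPM and Tcf7 and Lef1 below 1 TPM on average. Tcf7l1 (chromosome 6, 72626371 to 72789045), best known as a repressor of Wnt targets, had 18.7, 27.3, 18.9 and 21.0 TPM in WT and 29.2, 22.2, 20.9 and 20.5 TPM in MT units. Tcf7l2 had 15.8, 15.6, 12.8 and 15.1 TPM in WT and 19.6, 14.7, 15.9 and 13.1 TPM in MT units. Lef1 had 0.22, 0.31, 0.42 and 0.70 TPM in WT and 0.27, 0.30, 0.66 and 0.21 TPM in MT units. Axin2, the feedback gene, had 0.20, 0.44, 0.29 and 0.66 TPM in WT and 0.47, 0.13, 0.57 and 0.39 TPM in MT units. Single libraries of Axin2 ran from 0.03 to 1.07 TPM and those of Lef1 from 0.12 to 1.06 TPM, and the genotypes overlapped for both. Tcf7 had a WT mean of 0.44 TPM, and Nkd1 and Nkd2 had 0.26 and 0.43 TPM.

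Ordered by WT mean, the 23 genes ran from Fzd4 at 89.0 ± 5.57 TPM to Wnt6 at 1.44 ± 0.37 TPM (SD, n = 4 units). Only 3 steps of this order separated neighbours whose WT units did not overlap: Fzd4 over Fzd1, Fzd6 at 19.4 ± 1.85 over Tcf7l2 at 14.8 ± 1.39, and Fzd8 at 13.2 ± 2.28 over Znrf3 at 7.33 ± 1.53 TPM. All other neighbours overlapped.

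Wnt7b and Wnt9b varied between units more than the median gene at 10 TPM or more. On the log2(TPM + 1) scale the SD between WT units was 0.77 for Wnt7b and 0.67 for Wnt9b, where the median over 8842 genes at 10 TPM or more was 0.12. Fzd4 and Lgr4 had 0.09 and 0.08 between WT units. Between MT units the SD was 0.59 for Wnt7b and 0.34 for Wnt9b, against a median of 0.11. The units with the most Aqp2, WT unit 2 at 27629 TPM and MT unit 1 at 22497 TPM, were also the pair with the most Wnt7b. They were the pair with the most Tcf7l1 too. For Wnt9b only WT unit 2 stood apart, at 54.2 TPM, and MT units 1, 3 and 2 nearly tied at 28.17, 28.15 and 27.50 TPM. WT unit 1 had the least Aqp2, at 11231 TPM, the least Wnt7b and the least Tcf7l1. Between libraries of a unit, Wnt7b and Wnt9b also varied, with within-unit SDs of 0.55 and 0.45 in WT against a median of 0.15 over those 8842 genes. Wnt9b followed Aqp2 less closely, since MT unit 3 ranked 7 of 8 for Aqp2 and 3 of 8 for Wnt9b. Of the other principal cell markers, Aqp3, Avpr2, Fxyd4 and Hsd11b2 were also highest in that pair of units, while Scnn1b was lowest in WT unit 2 at 969.4 TPM and Scnn1g ran only from 753.1 to 877.7 TPM. The part of these markers in the spread of the ligands was not tested.

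**Figure D2:**
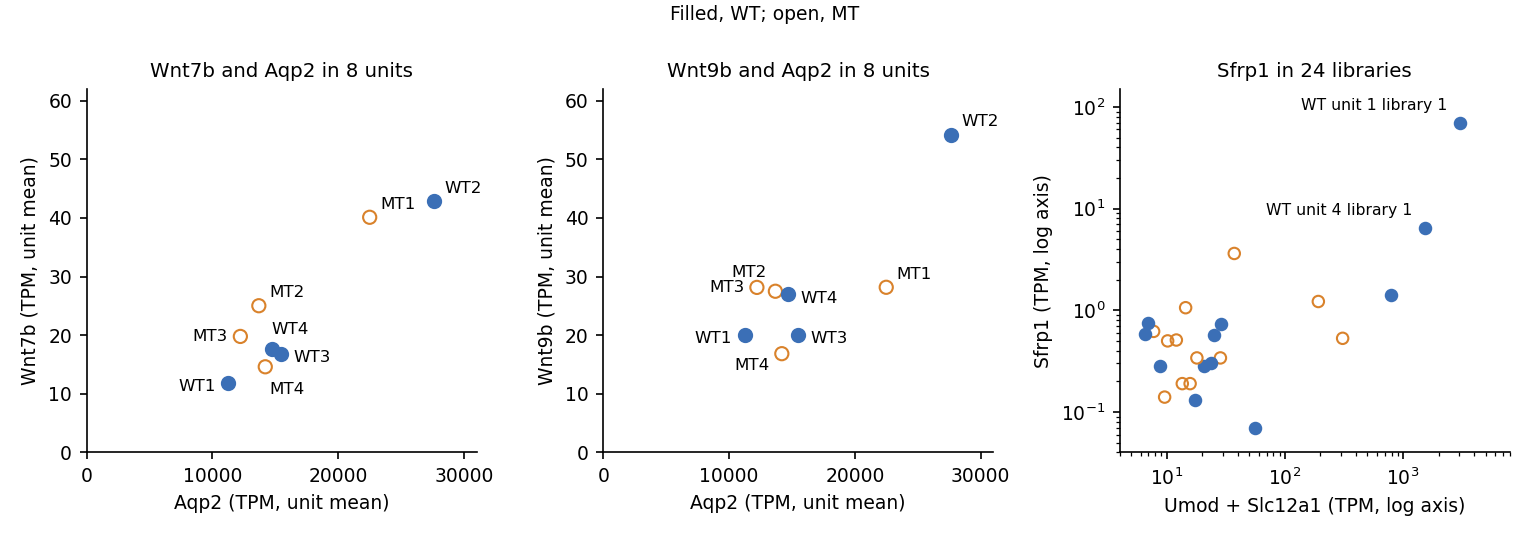
Left and centre, unit means in TPM of Wnt7b and of Wnt9b against Aqp2 for 4 WT (filled) and 4 MT (open) units; right, Sfrp1 against the sum of Umod and Slc12a1 in 24 single libraries, both on log axes. WT unit 2 and MT unit 1 hold the most Aqp2 and the most Wnt7b, and the library with 69.6 TPM of Sfrp1 has the highest thick ascending limb sum.

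Sfrp1 was set by single libraries. Library 1 of WT unit 1 had 69.6 TPM, library 1 of WT unit 4 had 6.49 TPM, and the other 22 libraries had 0.07 to 3.62 TPM. Those same libraries had the highest sums of Umod and Slc12a1, 3015 and 1532 TPM, against at most 789.3 TPM elsewhere. The third highest Sfrp1 value, 3.62 TPM in library 1 of MT unit 4, came with a sum of only 37.3 TPM. Other marker lists did not peak in the WT unit 1 library: it ranked 22nd of 24 for principal cells and 10th for the proximal tubule, but 2nd for immune markers at 119.1 TPM.

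The comparison of MT with WT asks what loss of this phosphorylation site on β-catenin does in the duct, and no gene of the Wnt set passed it. None of the 23 genes tested was called by limma at an adjusted p below 0.05, and none of all 15013 genes was, so the background was 0%. At an unadjusted p below 0.05 stood 1 of the 23, against 4.55% of all genes (683). The median log2 difference, MT minus WT, was -0.03 over the 23 genes and 0.01 over all genes, with 10 of 23 above 0. Units of the 2 genotypes did not overlap for 1 of 23 genes, Fzd2, where 3.02% of all genes did not overlap.

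Lrp6 had the smallest p of the set. It averaged 31.3 ± 3.64 TPM in WT and 36.1 ± 1.09 TPM in MT units (SD, n = 4), a log2 difference of 0.21 (SE 0.08, limma adjusted p = 0.969). WT unit 2 overlapped the MT units, and without it the difference was 0.28 (limma adjusted p = 0.577). Fzd2 averaged 1.87 ± 0.16 in WT and 1.38 ± 0.18 TPM in MT units, a log2 difference of -0.27 (SE 0.13, limma adjusted p = 0.969). Dkk3 differed by -0.26 (SE 0.12) with the same adjusted p, its WT units 1 and 3 lying above all others, and by -0.16 without WT unit 1. Znrf3 differed by -0.60 (SE 0.31), from 7.33 ± 1.53 to 4.86 ± 2.64 TPM, and by -0.33 without MT unit 4 and -0.87 without MT unit 1. The largest difference in size was that of Sfrp1, -1.18 (SE 0.81). Without the pair of libraries with the highest thick ascending limb sums, an alternative chosen after seeing the data, it turned to 0.19, and the count of called genes in the set stayed at 0.

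**Figure D3:**
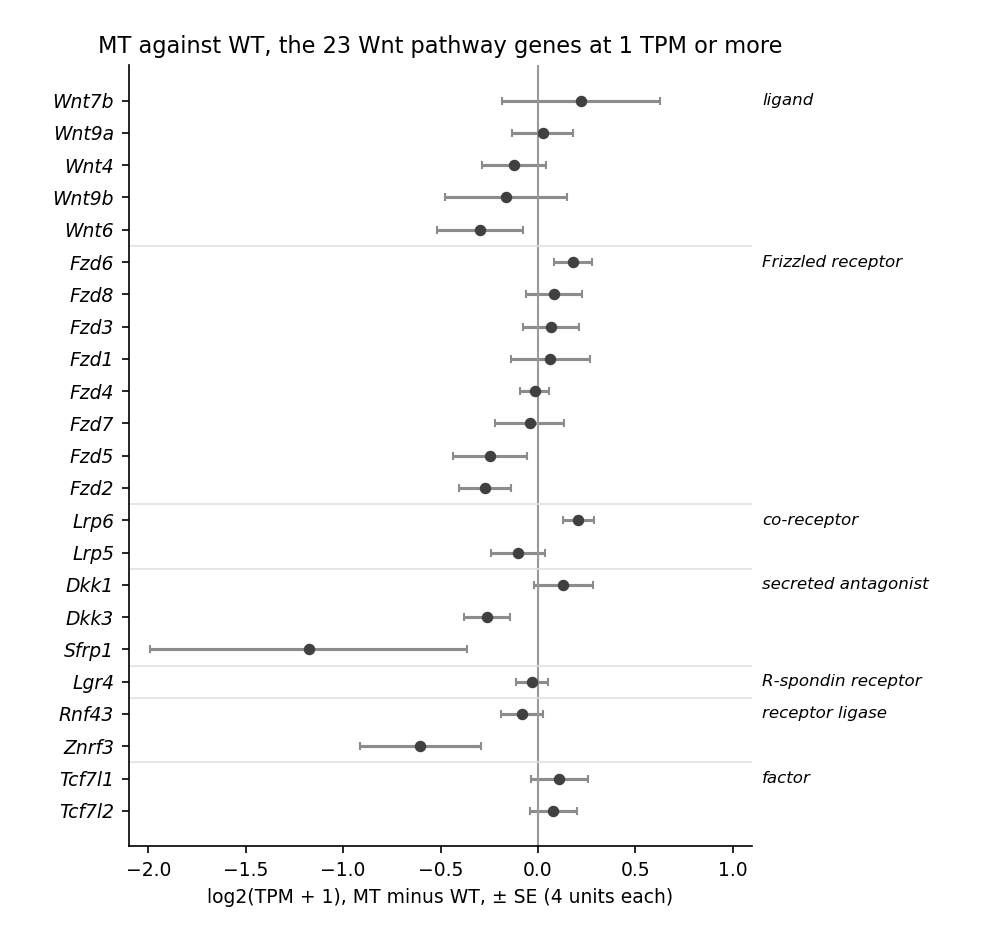
Difference in log2(TPM + 1), MT minus WT, with its standard error, for the 23 Wnt pathway genes tested (4 units per genotype), grouped by role. Most points lie close to 0; Sfrp1 at -1.18 and Znrf3 at -0.60 lie farthest out, and neither passed.

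The readouts of β-catenin and TCF transcription ran from near 0 up to Id2 at 525.8 TPM in WT and 448.9 TPM in MT units. Of a list of 44 such genes, 43 were in the table and 20 reached 1 TPM, where 27.1% of all genes did. By limma 0 of these 20 were called, with 1 at an unadjusted p below 0.05. This was Bmp4, a secreted growth factor, at 3.97 ± 0.39 TPM in WT and 2.60 ± 1.13 TPM in MT units (SD, n = 4), a log2 difference of -0.52 (limma adjusted p = 0.969). Birc5, which encodes the inhibitor of apoptosis survivin and is high in dividing cells, differed by 0.61 with the same adjusted p. The median difference of the 20 was 0.03. Znrf3, itself a readout, was the third by p. The cycling markers Mki67 and Top2a summed to 1.93 to 3.67 TPM in WT and 4.17 to 6.97 TPM in MT units. Top2a did not overlap, at 1.73 to 2.81 and 3.47 to 5.47 TPM, where 3.02% of all genes did not. Mki67 overlapped, at 0.21 to 0.86 and 0.69 to 1.50 TPM. The part of these markers in the Birc5 difference was not tested.

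None of the rest of the pathway passed either. Of 75 other Wnt pathway genes listed, such as Dishevelled, Gsk3b, Porcn and planar polarity genes, 71 were in the table and 56 were tested. By limma, 0 were called and 0 had an unadjusted p below 0.05, and their median difference was -0.01. The smallest p belonged to Sostdc1, a secreted antagonist of Wnt and BMP signals, at 131.1 ± 13.6 TPM in WT and 107.5 ± 21.4 TPM in MT units (log2 -0.30, limma adjusted p = 0.969). Vangl1, a planar polarity gene, and Gpc4, a glypican, differed by 0.28 and -0.11.

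The infusion of dDAVP asks what an excess of vasopressin signalling does in the duct, and its RNA-seq table listed only genes above 10 TPM in all 8 libraries. It held 4 genes of the set, Fzd4, Tcf7l1, Lrp6 and Fzd1. Of the 11 genes of the set above 10 TPM in every library of the other table, 36.4% were listed here, against 64.2% of all 7655 such genes. Wnt7b, Wnt9b, Rnf43 and Lgr4 are not analysed here for dDAVP. The tables were normalised separately, so levels are compared only within each. Some cell markers moved with the infusion. The 7 principal cell markers summed to 31003 to 34194 TPM with saline and 68412 to 92130 TPM with dDAVP, mostly through Aqp2 at 18074 to 21874 and 51774 to 72251 TPM. Scnn1b went the other way, from 653.1 to 748.1 TPM with saline to 381.2 to 540.4 TPM with dDAVP, and Scnn1g, Fxyd4 and Hsd11b2 overlapped. The 5 intercalated cell markers summed to 2348 to 2799 and 1299 to 1992 TPM, and the 2 endothelial markers listed to 110.8 to 201.7 and 161.1 to 423.8 TPM. Of these intercalated cell markers only Slc26a4 was apart, at 705.2 to 1073 TPM with saline and 320.7 to 565.2 TPM with dDAVP. Atp6v1b1, Atp6v0d2, Slc4a1 and Foxi1 overlapped, as did both endothelial markers. The part of these markers in the values below was not tested.

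None of the 4 genes was called, where limma called 0.695% of the 5035 genes tested. One of the 4 had an unadjusted p below 0.05, against 11% of all genes. Groups overlapped for all 4 genes, whereas 8.58% of all genes had groups that did not. Fzd4 (ENSMUSG00000049791) had 57.5, 79.7, 16.9 and 43.9 TPM in saline libraries 1 to 4 and 78.3, 88.1, 87.7 and 82.2 TPM in dDAVP libraries 1 to 4. The dDAVP libraries lay close together near the top, and saline library 2 overlapped them. The means were 49.5 ± 26.3 and 84.1 ± 4.69 TPM (SD, n = 4), a log2 difference of 0.95 (SE 0.40, limma adjusted p = 0.416). The authors' deposited table gave 0.97 with an adjusted p of 1.00. Without saline library 3 the difference was 0.51, with a limma adjusted p of 0.467. That library held 2286 TPM of the proximal tubule gene Slc34a1, against 27.2 to 426.5 TPM in the other 7. In the dDAVP group, library 1 held 5253 TPM of the thick ascending limb gene Umod, against 20.95 to 824.9 TPM in the other 7.

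Tcf7l1 (ENSMUSG00000055799) had 20.2, 21.4, 37.5 and 39.7 TPM with saline and 29.1, 32.0, 35.3 and 28.1 TPM with dDAVP. Saline libraries 1 and 2 were below, and 3 and 4 above, every dDAVP library. Lrp6 (ENSMUSG00000030201) had 19.8, 26.0, 42.7 and 54.5 TPM with saline and 28.9, 26.8, 13.5 and 54.5 TPM with dDAVP, ranges that nearly coincide. Fzd1 (ENSMUSG00000044674) had 22.3, 15.5, 19.9 and 48.7 TPM with saline and 19.1, 21.6, 16.9 and 19.7 TPM with dDAVP, with saline library 4 apart from the rest. The log2 differences were 0.12 (SE 0.29) for Tcf7l1, -0.26 (SE 0.43) for Lrp6 and -0.31 (SE 0.33) for Fzd1.

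**Figure D4:**
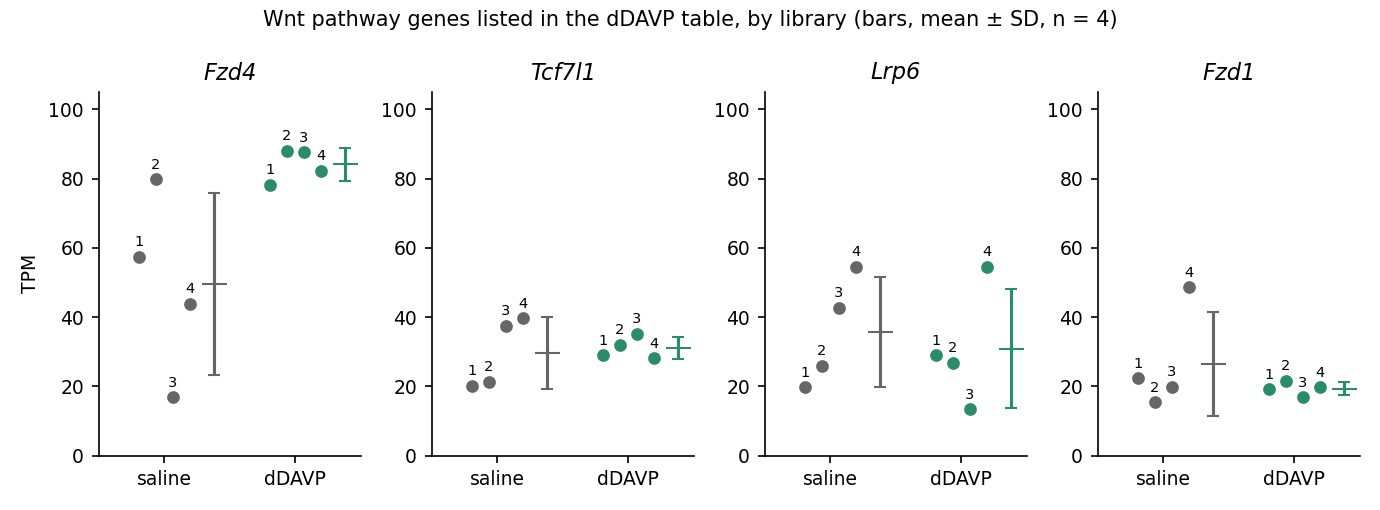
TPM of Fzd4, Tcf7l1, Lrp6 and Fzd1 in each of 4 saline and 4 dDAVP libraries (numbered points) with mean and SD. Fzd4 lies between 78.3 and 88.1 TPM with dDAVP and between 16.9 and 79.7 TPM with saline; the groups overlap in all 4 panels.

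Of the 44 readouts of β-catenin, a list chosen with earlier results of these data known, 5 were in this table. Axin2 and Lef1 were not among the genes above its limit of 10 TPM, so the 5 do not stand for the list. Of these 5, 0 had a log2 difference above 0, against 43.6% of all genes. At an unadjusted p below 0.05 stood 2 of the 5, against 11% of all genes. Limma called 1 of the 5, where it called 0.695% of all 5035 genes. This was Id2, which encodes a factor that blocks helix-loop-helix proteins. It fell from 569.4 ± 117.4 to 168.1 ± 33.9 TPM (SD, n = 4; log2 -1.75, limma adjusted p = 0.0032). Jun, part of the AP-1 factor and an early response gene, had 369.1 ± 189.6 and 89.3 ± 95.9 TPM (log2 -2.35, limma adjusted p = 0.108). Without dDAVP library 2 it passed as well. Vegfa, which encodes a growth factor for vessels, differed by -0.79 (limma adjusted p = 0.513). Of the other Wnt pathway genes 21 were tested, and limma called 0, with 0 at an unadjusted p below 0.05. Fbxw11, part of the ligase that marks β-catenin for destruction, had the smallest p (log2 -0.47, limma adjusted p = 0.512), before Gpc3 at 0.72 and Dvl1 at 0.63.

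Chromatin was read from the authors' deposited ATAC-seq table (mm10), which gives for each peak the log2 mean signal of the saline and of the dDAVP group, their fold change and an adjusted p, but no value per library. All values below on peaks are the authors', called at an adjusted p below 0.05. Each of the 56 genes had at least 1 peak, 1210 in all. The table names a peak by a nearby gene: of 643 intron and exon peaks, 494 lay in a transcript of the gene named and 147 in that of another gene.

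Peaks were stronger at the expressed genes of the set. The strongest peak of the 23 expressed genes had a median saline signal of 8.68 on the log2 scale, against 5.97 for the other 33. The expressed genes also had more peaks to choose from, 783 against 427. Spearman's rho between that signal and the WT level was 0.62 over the 56 genes, and 0.46 for the strongest promoter peak over the 36 genes with one, both descriptions across genes that share libraries. Some genes with little RNA had open chromatin nonetheless: the Axin2 promoter peak had a saline signal of 7.24, that of Tcf7 7.29, that of Wnt2b 7.78 and that of Wnt5b 7.65, and an intergenic peak named with Wnt11 had 8.88. Fzd4, the gene with the most RNA, had 4 peaks, none of them annotated as a promoter, the strongest at 6.88.

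With dDAVP, 77 peaks of the set were called lower and 8 higher. That was 6.36% lower against 5.98% of all 270806 peaks, and 0.661% higher against 0.846%. The set had 65 promoter peaks over 36 genes. Of these 15 (23.1%), over 14 genes, were called lower against 25.8% of all promoter peaks, and 0 were higher against 0.167%. Among promoter peaks with a mean signal of 7 or more, 8 of 13 were lower, or 61.5%, against 65.5% of all such peaks. In total these shares lay near those of all peaks. Within ranges of signal they differed more, on few peaks: 2 of 24 (8.33%) against 0.402% below 3, 0 of 15 against 3.10% from 3 to 5, and 5 of 13 (38.5%) against 29.8% from 5 to 7. The 2 weak peaks called were at Dkk1 and Wnt10a.

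**Figure D5:**
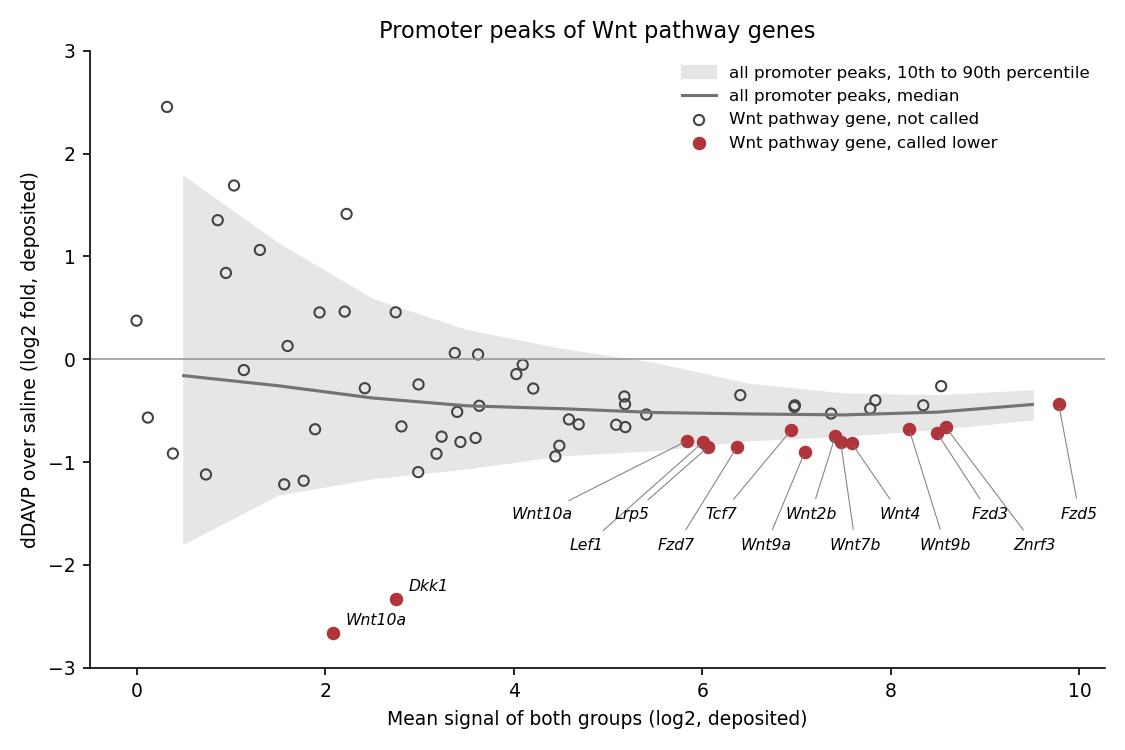
The authors' log2 fold change, dDAVP over saline, against the mean log2 signal of both groups for 65 promoter peaks of Wnt pathway genes (filled, called lower), with the median and the 10th to 90th percentile of all promoter peaks by signal. All 15 called peaks lie below 0, from -2.66 to -0.43, 13 of them at a signal above 5.

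Promoters of expressed ligands were among the peaks called lower. The fold changes, all on the log2 scale, were -0.90 at Wnt9a, -0.82 at Wnt4, -0.81 at Wnt7b and -0.68 at Wnt9b, with adjusted p-values of 4.83e-04 to 0.00425 in the authors' deposited table. All promoter peaks of like signal had medians of -0.54 for the first 3 and -0.51 for Wnt9b. Wnt7b had 8 and Wnt9b 7 peaks called lower of 46 and 11, where 5.98% of all peaks were. That share depends on signal: it was 0.119% of all peaks below 3 and 53.4% at 7 or more. Both genes held strong peaks, up to a saline signal of 10.0 and 9.59. Whether their counts differ from those of peaks of like signal was not tested. The ligands Wnt2b (-0.74) and Wnt10a (-0.79 and -2.66), both below 1 TPM, were lower too.

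Among receptors, the promoters of Fzd5 (-0.43), Fzd3 (-0.72) and Lrp5 (-0.85) were lower, and of 2 promoter peaks at Fzd7 the weaker was lower (-0.86) while the stronger was not called (-0.26, adjusted p = 0.357 in the authors' deposited table). The Fzd5 peak was the strongest promoter peak of the set, with a saline signal of 10.0, although Fzd5 RNA averaged only 1.82 ± 0.39 TPM in WT units. Znrf3 (-0.66), Dkk1 (-2.34), Tcf7 (-0.69) and Lef1 (-0.81) completed the called promoters. The strongest promoter peaks of Fzd8 (-0.45), Tcf7l2 (-0.40), Rnf43 (-0.48), Lrp6 (-0.54), Fzd2 (-0.58), Fzd1 (-0.84), Dkk3 (-0.14) and Lgr4 (-0.76) were not called. Fzd4, Fzd6, Tcf7l1, Sfrp1 and Wnt6, though at a mean of 1 TPM or more, had no peak annotated as a promoter.

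The annotation as a promoter missed strong peaks that overlapped a RefSeq start. Such overlap was looked for only at the 37 genes of the set with a RefSeq promoter given. Fzd2, Fzd6 and other expressed genes had none and were not examined. At Fzd1 a peak annotated to the 5′ UTR, with a saline signal of 9.52, was called lower (-0.37, adjusted p = 0.0376 in the authors' deposited table). At Lgr4 a 5′ UTR peak with a signal of 9.36 was lower too (-0.39, adjusted p = 0.0393). Tcf7l1 had an exon peak over its start with a signal of 9.54 that was lower (-0.53, adjusted p = 0.00182), and Wnt6 a 5′ UTR peak with a signal of 6.14 (-0.89, adjusted p = 0.0090). So the starts of these 4 expressed genes were lower, although no peak annotated as a promoter was called lower at any of them. Lower peaks were common at such signals: 53.4% of all peaks at a mean signal of 7 or more, and 15.9% from 5 to 7. Of all 5′ UTR peaks, 36.2% were lower. The median fold of all promoter peaks with a signal of 9 to 10 was -0.44. No peak named with the set overlapped the RefSeq start of Fzd4, and peaks named with other genes were not searched there.

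The 8 peaks called higher lay away from promoters. The smallest adjusted p was that of a peak named with Wnt5a at chr14:28450714-28451456, whose signal went from 1.23 to 4.17 (fold 2.99, adjusted p = 1.73e-04 in the authors' deposited table). It is annotated to intron 19 of 19 of Erc2, a neighbouring gene. A peak in intron 3 of 11 of Lef1 itself, at chr3:131139204-131140036, went from 5.31 to 6.11 (fold 0.91, adjusted p = 0.00723), while the called Lef1 promoter peak fell from 6.39 to 5.47. A peak named with Fzd1 (fold 1.88) is annotated to intron 10 of 14 of Cdk14. The others were intergenic peaks named with Wnt5a (1.61), Wnt8a (1.45), Axin2 (2.19), Sfrp2 (1.45) and Tcf7l2 (5.25). The last rose from a saline signal of 0. The 5 lower peaks of smallest adjusted p were in intron 2 of 22 of Lrp5 (-1.03, adjusted p = 3.85e-05), exon 1 of 4 of Dkk1 (-1.02), an intergenic stretch named with Fzd1 (-0.92), intron 1 of 3 of Wnt9b (-0.58) and the Wnt9a promoter.

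Promoter sequences show what these peaks cover. RefSeq (GRCm38.p6, the build of mm10) gave 46 promoters for 37 of the 56 genes, each 250 bases before to 50 after a start. TCF and LEF factors favour the motif searched on both strands as CTTTGAA or CTTTGAT, and with a T after the G as CTTTGTT or CTTTGTA. It was found in 7 of the 46 (15.2%), against 16.9% of all 32851 promoters, at Dkk1, Fzd7, Lef1, Tcf7l2, Wnt11, Wnt3 and Wnt5b. The cAMP response element, searched as TGACGTCA or its variants TGACGTAA and TGACGCAA, was found in 0 of 46 against 2.75%. The motifs do not overlap. The promoters of the set were rich in G and C, with a median of 66.4% against 52.4%, and held a median of 16.5 CpG against 6 in the 250 bases before the start. A match is a stretch of letters and not a bound site.

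The 250 bases before the start are shown, 5′ to 3′ on the gene's strand, for the genes whose promoters hold a TCF/LEF match among the expressed or called genes, and for Wnt9b, Wnt4 and Axin2, whose windows hold none. Capitals mark the matches. Dkk1 lies at chr19:30549497-30549746 (minus strand), with matches beginning 117 and 98 bases before the start and under the exon 1 peak called lower. Fzd7 lies at chr1:59481897-59482146 (plus strand), its match 130 bases before the start inside the promoter peak that was not called. Lef1 is shown at an internal start, chr3:131156044-131156293 (plus strand), its match 147 bases before that start. No peak named with the set overlaps this stretch, and peaks named with other genes were not searched. Tcf7l2 is likewise shown at an internal start, chr19:55895071-55895320 (plus strand), its match 14 bases before the start and just outside a weak peak with a saline signal of 1.25. Wnt9b lies at chr11:103749822-103750071 (minus strand) and Wnt4 at chr4:137277385-137277634 (plus strand), both overlapping promoter peaks called lower. Axin2 lies at chr11:108920099-108920348 (plus strand), under a promoter peak that was not called (-0.46).
Dkk1: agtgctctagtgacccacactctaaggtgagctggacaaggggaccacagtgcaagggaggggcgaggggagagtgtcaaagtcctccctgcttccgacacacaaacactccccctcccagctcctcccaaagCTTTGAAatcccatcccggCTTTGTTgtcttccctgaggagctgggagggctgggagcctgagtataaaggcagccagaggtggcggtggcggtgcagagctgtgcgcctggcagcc
Fzd7: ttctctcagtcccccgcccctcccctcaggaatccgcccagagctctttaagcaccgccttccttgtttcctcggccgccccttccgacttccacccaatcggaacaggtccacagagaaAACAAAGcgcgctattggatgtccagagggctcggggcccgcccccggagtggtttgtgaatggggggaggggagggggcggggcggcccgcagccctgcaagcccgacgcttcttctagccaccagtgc
Lef1: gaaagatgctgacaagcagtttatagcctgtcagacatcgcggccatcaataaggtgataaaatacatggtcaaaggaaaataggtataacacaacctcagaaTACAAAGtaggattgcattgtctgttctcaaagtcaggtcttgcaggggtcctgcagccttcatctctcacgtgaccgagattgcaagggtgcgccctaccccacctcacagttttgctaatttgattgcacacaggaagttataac
Tcf7l2: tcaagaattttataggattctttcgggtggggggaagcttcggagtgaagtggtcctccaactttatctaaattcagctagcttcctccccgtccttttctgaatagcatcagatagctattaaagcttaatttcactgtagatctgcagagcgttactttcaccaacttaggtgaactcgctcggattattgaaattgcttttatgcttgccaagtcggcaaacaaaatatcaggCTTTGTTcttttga
Wnt9b: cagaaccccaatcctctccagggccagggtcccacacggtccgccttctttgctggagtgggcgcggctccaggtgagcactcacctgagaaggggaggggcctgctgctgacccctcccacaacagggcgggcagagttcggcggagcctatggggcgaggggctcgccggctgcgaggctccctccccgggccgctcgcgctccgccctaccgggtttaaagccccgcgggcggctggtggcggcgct
Wnt4: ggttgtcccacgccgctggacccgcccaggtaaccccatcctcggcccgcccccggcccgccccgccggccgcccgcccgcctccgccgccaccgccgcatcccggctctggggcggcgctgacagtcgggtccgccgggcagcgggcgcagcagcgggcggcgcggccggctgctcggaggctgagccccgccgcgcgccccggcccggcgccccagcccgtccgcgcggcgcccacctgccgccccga
Axin2: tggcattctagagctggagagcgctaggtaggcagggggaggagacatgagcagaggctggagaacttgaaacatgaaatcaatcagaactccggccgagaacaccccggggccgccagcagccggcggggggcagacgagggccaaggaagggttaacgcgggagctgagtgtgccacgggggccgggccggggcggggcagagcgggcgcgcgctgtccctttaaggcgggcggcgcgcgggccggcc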

How the data were processed

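Per the labels' protocols, RNA libraries were made with SMARTer V4 and Nextera XT. The submitters' processing notes name, in no stated role, STAR and RSEM, cutadapt 3.4 and Bowtie2, MACS2 and DiffBind among others, and build mm10. The authors deposited TPM for both RNA tables, which keeps no depth, so depth is unknown and no counting interval is given. The infusion table lists genes above 10 TPM, per its file header, with the authors' log2 fold change and p-value, and 8 log2 copies of its library columns that were not used. In the ATAC-seq table the authors deposited log2 group means, a log2 fold change and an adjusted p-value per peak.

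The 3 libraries of a unit were averaged. limma 3.58.1 (R 4.3.3, eBayes with trend) was run on log2(TPM + 1) over all genes with a mean of 1 TPM or more, as a two-sided test. P-values were adjusted by Benjamini-Hochberg over all genes fitted, calls were made below 0.05, and the fit was tested on simulated data. Fold changes on this scale understate those of low genes. Groups came from titles. The alternatives were another pseudocount, other minimums, other scalings, a replicate block, unit medians, 24 libraries with units as random blocks, and each unit or library left out, with 1 added after seeing the data, the libraries of highest thick ascending limb sum left out; for ATAC-seq, a stricter threshold, a signal minimum and a centring by signal.

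Every gene of the set at 1 TPM or more, each gene in the infusion table, Axin2 and Lef1 were named, with called and strongest promoter peaks, the 5 peaks of smallest adjusted p in each direction, and from each other list the called genes and the 3 of smallest p. The gene set and lists were chosen with earlier results of these data known.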

Additional observations from a re-analysis of the deposited data

Results flagged for a closer look

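In 58 groups of 4 units or libraries, 3 values stood far from the others of their group, where chance gives 1 in 20 groups. Lrp6 was 36.7 TPM in WT unit 2, against 29.0 to 30.2 TPM in the other WT units, which put it among the MT units. Wnt9b was 16.8 TPM in MT unit 4, against 27.5 to 28.2 TPM in the other MT units; the same unit had the least Znrf3. Sfrp1 was 23.4 TPM in WT unit 1, against 0.54 to 2.43 TPM in the other WT units, and 1 of its 3 libraries held 69.6 TPM.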

How the results depend on the processing

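No gene of the set was called under any alternative run, in either RNA comparison, and the smallest limma adjusted p over all alternatives was 0.577 for MT against WT and 0.297 for dDAVP. Over all genes, calls for MT against WT ranged from 0 to 5 with 1 unit left out (5 without MT unit 4, 2 without WT unit 4, 1 without WT unit 3 or MT unit 2) and were 1 with 24 libraries. For dDAVP they were 35, and 7 to 47 with 1 library left out. The readouts of β-catenin called for dDAVP were 1 to 2 then. With a replicate block, calls over all genes were 0 for MT against WT and 8 for dDAVP, and 0 genes of the set were called. Same-numbered WT and MT units correlated at -0.028 to 0.040 in their deviations. Saline and dDAVP libraries 1 and 2 correlated at 0.19 and 0.23, each best with its own number, but libraries 3 and 4 at 0.087 and -0.15, so numbers were not taken as pairs.

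The largest difference, that of Sfrp1, changed sign, as did several small ones. With unit medians, log2 MT minus WT was 0.046 for Sfrp1, 0.020 for Lgr4 and -0.042 for Wnt9a. Without the pair of libraries of highest thick ascending limb sum it was 0.19 for Sfrp1, 0.018 for Fzd4 and 0.059 for Lgr4. Leaving out each unit in turn gave -0.052 to 0.20 for Fzd1, -0.039 to 0.13 for Fzd3, -0.048 to 0.043 for Fzd4, -0.20 to 0.091 for Fzd7, -0.013 to 0.18 for Fzd8, -0.094 to 0.028 for Lgr4, -0.14 to 0.011 for Rnf43, -0.0018 to 0.22 for Tcf7l1, -0.022 to 0.16 for Tcf7l2, -0.032 to 0.58 for Wnt7b, -0.071 to 0.13 for Wnt9a and -0.31 to 0.15 for Wnt9b. For dDAVP, leaving out each library gave -0.51 to 0.018 for Fzd1, -0.58 to 0.071 for Lrp6 and -0.033 to 0.28 for Tcf7l1. Of the 23 and 4 genes tested, 10 and 1 kept their direction in every fit run.

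At an adjusted p below 0.01, 37 peaks were lower and 3 higher. Centring folds on peaks of like signal kept the same calls and only re-signed some, to 71 lower and 14 higher, with no new test; the median fold of promoter peaks was then -0.26. At a limit of 5 TPM, 15 genes were expressed. The causes were not tested. Group means alone and unknown depth limit the ATAC-seq and RNA-seq values.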
